A study of Homo sapiens with 8 samples.

Results

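The genes described here encode 7 cell-surface ligands that leukocytes bind: ICAM1, ICAM2, ICAM3, ICAM5, VCAM1, CD58 and CD47. They were taken by gene symbol, with earlier results of these data known, and all 7 were found among the 26485 genes of each table. RNA was sequenced from BEAS-2B, an established, virus-immortalised human bronchial epithelial cell line. All cells had received an siRNA, either against LY96 or a control, were grown in BEGM, moved to BEBM, given house dust mite (HDM) extract or PBS 24 h after that, and harvested a further 24 h later. The 4 groups were LY96 siRNA with HDM (3 libraries), control siRNA with HDM (3 libraries), LY96 siRNA with PBS (1 library) and control siRNA with PBS (1 library). LY96 encodes MD-2, the lipopolysaccharide-binding partner of TLR4, and the design asks how the response to HDM depends on it. LY96 was listed at 0 FPKM in all 8 libraries, so its depletion could not be checked and each siRNA group is named by its label. The sources used here give neither doses nor the origin of the 3 libraries in a group, so the p-values rest on a spread between libraries that could be technical only.

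Leukocytes hold on to other cells through integrins and immunoglobulin-type receptors that bind such ligands. ICAM1 binds the beta-2 integrins (an ITGB2 chain with ITGAL or ITGAM), is induced by inflammatory cytokines through NF-kB, and on airway epithelium serves leukocyte retention and as the receptor of many rhinoviruses. ICAM2 is typical of endothelium and platelets, ICAM3 of leukocytes and ICAM5 of forebrain neurons. VCAM1 binds the ITGA4-ITGB1 integrin and is best known from cytokine-treated endothelium. CD58 is the ligand of CD2 on T and NK cells, and CD47 binds SIRPA on macrophages, which restrains phagocytosis, as well as thrombospondin.

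The promoters of ICAM1 and CD47 are shown because these genes were called for HDM, and those of VCAM1 and CD58 because all 6 of their HDM libraries lay above the PBS library of the same siRNA, although CD58 was not called and VCAM1 was too low to test. Each runs from 250 bases before to 50 bases after a RefSeq start (GRCh38.p14) on the gene's strand, at chr19:10270870-10271169 (plus strand) for ICAM1, chr1:100719492-100719791 (plus strand) for VCAM1, chr3:108090982-108091281 (minus strand) for CD47 and chr1:116570977-116571276 (minus strand) for CD58. Capitals mark matches to GGNNNTTCC on either strand (GGAANNNCC on the other), a loose NF-kB pattern.
ICAM1: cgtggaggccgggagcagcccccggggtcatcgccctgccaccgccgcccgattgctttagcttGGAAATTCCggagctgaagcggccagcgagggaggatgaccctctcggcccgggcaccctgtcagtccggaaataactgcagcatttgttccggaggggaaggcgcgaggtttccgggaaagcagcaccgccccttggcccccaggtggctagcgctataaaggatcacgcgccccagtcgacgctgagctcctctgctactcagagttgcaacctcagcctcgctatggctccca
VCAM1: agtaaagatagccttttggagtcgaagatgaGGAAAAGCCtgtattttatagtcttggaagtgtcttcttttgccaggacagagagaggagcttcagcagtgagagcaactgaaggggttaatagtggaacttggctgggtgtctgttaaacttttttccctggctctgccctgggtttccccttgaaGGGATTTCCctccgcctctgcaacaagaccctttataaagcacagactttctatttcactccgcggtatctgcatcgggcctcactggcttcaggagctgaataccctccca
CD47: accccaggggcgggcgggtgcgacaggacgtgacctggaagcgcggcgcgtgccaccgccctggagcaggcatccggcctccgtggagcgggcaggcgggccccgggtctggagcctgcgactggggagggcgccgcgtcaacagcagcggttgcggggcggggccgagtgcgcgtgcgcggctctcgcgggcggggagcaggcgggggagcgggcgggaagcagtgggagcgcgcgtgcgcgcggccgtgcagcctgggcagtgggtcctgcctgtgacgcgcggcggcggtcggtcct
CD58: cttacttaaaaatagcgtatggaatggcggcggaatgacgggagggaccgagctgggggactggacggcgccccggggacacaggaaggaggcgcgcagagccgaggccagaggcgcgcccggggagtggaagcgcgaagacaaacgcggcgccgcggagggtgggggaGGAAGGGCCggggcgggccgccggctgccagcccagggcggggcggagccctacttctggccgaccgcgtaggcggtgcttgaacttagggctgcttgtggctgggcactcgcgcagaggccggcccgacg
In ICAM1 the match was at -186 to -178 from the start and fits the pattern in both orientations. VCAM1 had a match at -219 to -211 and another at -62 to -54, CD58 had 1 at -81 to -73, and the CD47 and ICAM5 windows had none. Of all 35116 RefSeq windows of this length, 20.1% held the pattern, so a match is common. The pattern TTCNNNGAA, a STAT dimer element, was found at -75 to -67 in ICAM1 and in no other member window, against 7.66% of all windows. The AP-1 pattern TGANTCA was in no member window, against 7.71% of all windows. The ICAM1 window lies wholly within exons of ICAM1 in GENCODE v29, which also annotates an earlier start. RefSeq windows were found for 6 of the 7 genes, ICAM2 being the other one.

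**Figure D1:**
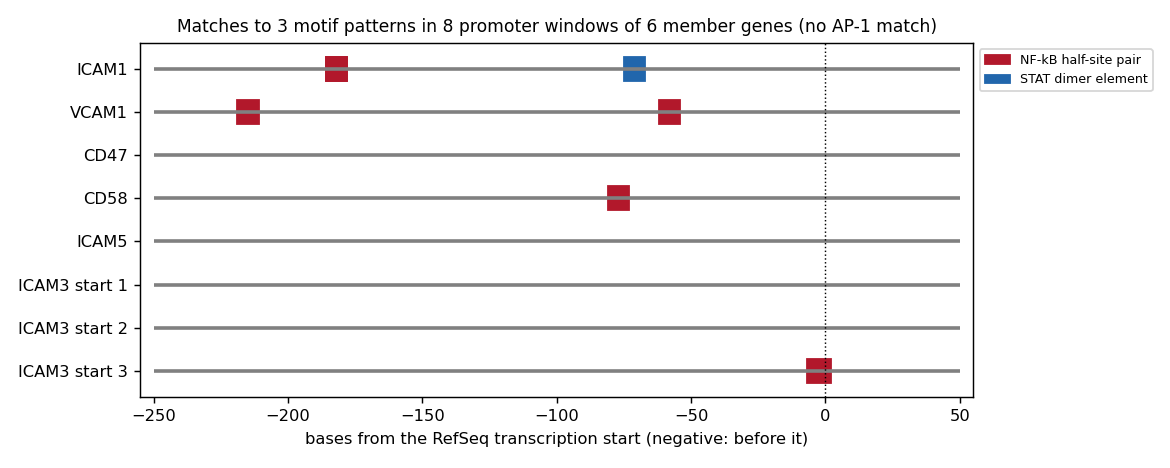
Matches to 3 sequence patterns in the 8 RefSeq promoter windows of 6 genes, by distance in bases from the transcription start. NF-kB type matches stand in ICAM1, VCAM1, CD58 and 1 of 3 ICAM3 windows, the only STAT type match is in ICAM1, and CD47 and ICAM5 have no match.

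The values were read as FPKM, fragment counts scaled for transcript length and library size, so levels can be compared between genes. ICAM1 was the highest of the 7 in each library and CD47 the next, with an ICAM1 to CD47 ratio of 2.22 to 2.49 in LY96 siRNA HDM libraries, 2.33 to 2.41 in control siRNA HDM libraries, 1.22 in the LY96 siRNA PBS library and 1.62 in the control siRNA PBS library. Below them, CD58 (7.12 to 8.84 FPKM), ICAM5 (3.75 to 5.41) and ICAM3 (2.41 to 3.08) followed in that order without overlap over the 8 libraries. VCAM1 ranged from 0 to 0.859 FPKM and ICAM2 was listed at 0 in all 8 libraries. With a mean under 1 FPKM, VCAM1 and ICAM2 were too low to test, and the read depth behind them is unknown. A listed 0 may also be an estimate that failed, so ICAM2 (chromosome 17, 64002594 to 64020634, minus strand) is too low to judge.

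The cells carried epithelial transcripts, with 8 of 8 markers at a mean of at least 1 FPKM. Of 7 endothelial markers 0 reached that level and PECAM1 was at 0 in all libraries. Of 9 leukocyte markers only ITGB2 reached it, while PTPRC, CD3E, CD53 and LCP2 were at 0 throughout. Of 9 fibroblast or mesenchymal markers 4 reached it, VIM among them, with DCN and LUM at 0. FPKM totals ranged from 329777 to 340328.

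HDM raised ICAM1 and CD47, whichever siRNA the cells had received. ICAM1 (chromosome 19, 10270835 to 10286615, plus strand, GRCh38) was at 47.3, 49.9 and 51.1 FPKM with LY96 siRNA and HDM, against 19.1 with LY96 siRNA and PBS. With control siRNA it was at 45.7, 46.6 and 48.9 FPKM under HDM, against 24.1 under PBS. Every HDM library thus lay far above both PBS libraries. The mean rose 2.59-fold with LY96 siRNA (log2 1.33 ± 0.06 SE on the log2(FPKM + 1) scale, adjusted p = 4.02e-06) and 1.96-fold with control siRNA (log2 0.94 ± 0.06 SE, adjusted p = 4.54e-05). All p-values here are two-sided, from limma, and Benjamini-Hochberg adjusted over all genes tested. Each siRNA had 1 PBS library, which is assumed to vary like the HDM libraries. More RNA per cell and more cells with the transcript cannot be told apart in such bulk samples.

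CD47 (chromosome 3, 108043094 to 108091862, minus strand) was at 21.3, 20.9 and 20.5 FPKM with LY96 siRNA and HDM, against 15.7 with LY96 siRNA and PBS. With control siRNA its HDM libraries held 19.5, 20.05 and 20.3 FPKM, against 14.8 in the PBS library. Again no HDM library reached down to a PBS library. The rise was 1.33-fold with LY96 siRNA (log2 0.39 ± 0.05 SE, adjusted p = 0.00274) and 1.35-fold with control siRNA (log2 0.41 ± 0.05 SE, adjusted p = 0.00406). Averaged over both siRNAs, ICAM1 changed by log2 1.13 and ranked 47 of 12604 genes by its difference, and CD47 changed by log2 0.40 and ranked 232.

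Of the 5 members tested, 2 were called higher and 0 lower for HDM over both siRNAs, where 8.36% of all genes tested were called, 4.86% higher and 3.5% lower. ICAM1 and CD47 were also the 2 called higher within each siRNA, and 0 were called lower. With LY96 siRNA 4.9% of all genes were called, 2.91% higher and 1.98% lower, and with control siRNA 2.28% were called, 1.55% higher and 0.738% lower. The median difference of the 5 was log2 0.11, beside 0.01 over all genes. The share of ICAM1 in the summed FPKM of the 7 genes was 55.5% to 57.5% in LY96 siRNA HDM libraries and 56.3% to 57.8% in control siRNA HDM libraries, against 37.3% in the LY96 siRNA PBS library and 44.2% in the control siRNA PBS library.

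**Figure D2:**
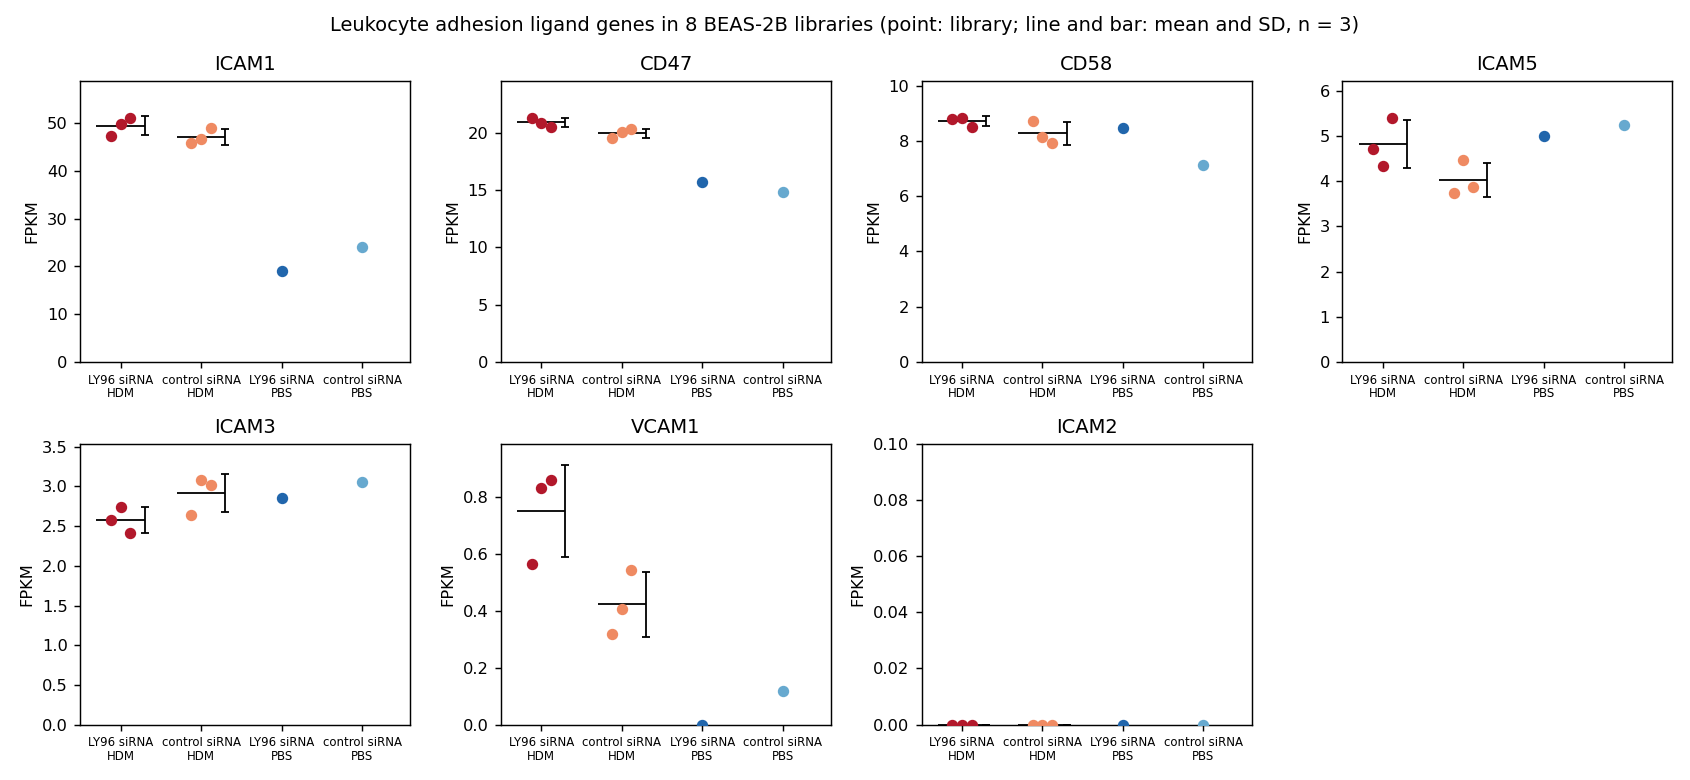
FPKM of the 7 genes in each of the 8 libraries, by siRNA and stimulus; points are libraries, lines and bars the mean and SD of the 3 HDM libraries. ICAM1, CD47, CD58 and VCAM1 are higher in each HDM library than in the PBS library of the same siRNA, and ICAM2 is at 0 throughout.

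The other 3 tested members did not pass the test for HDM. CD58 (chromosome 1, 116514535 to 116571039, minus strand) was at 8.78, 8.84 and 8.52 FPKM with LY96 siRNA and HDM against 8.48 with PBS, and at 8.74, 8.16 and 7.91 with control siRNA and HDM against 7.12 with PBS. All 6 HDM values lay above the PBS value of their siRNA, by little with LY96 siRNA, as did those of 16% of genes with a mean of 1 FPKM or more. Its difference over both siRNAs was log2 0.11 (95% interval 0.0016 to 0.22, adjusted p = 0.225).

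ICAM5 (chromosome 19, 10289981 to 10296778, plus strand) was at 4.72, 4.34 and 5.41 FPKM with LY96 siRNA and HDM against 5.01 with PBS, and at 3.75, 4.46 and 3.87 with control siRNA and HDM against 5.24 with PBS. Its HDM libraries lay below the PBS library with control siRNA and on both sides of it with LY96 siRNA. The difference over both siRNAs was log2 -0.18 (95% interval -0.37 to 0.0055, adjusted p = 0.247). ICAM3 (chromosome 19, 10333776 to 10339823, minus strand) was at 2.58, 2.74 and 2.41 FPKM with LY96 siRNA and HDM against 2.86 with PBS, and at 2.64, 3.08 and 3.02 with control siRNA and HDM against 3.05 with PBS. Its HDM libraries lay below the PBS library with LY96 siRNA and on both sides of it with control siRNA, and the difference over both siRNAs was log2 -0.08 (95% interval -0.25 to 0.08, adjusted p = 0.588). GENCODE v29 places antisense genes over ICAM1 and ICAM3, and whether the counting used strand is not given in the sources used here, so reads of the opposite strand may be included in these values.

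VCAM1 (chromosome 1, 100719742 to 100739045, plus strand) was at 0.563, 0.831 and 0.859 FPKM with LY96 siRNA and HDM, and was listed at 0 with LY96 siRNA and PBS. With control siRNA it was at 0.318, 0.407 and 0.545 FPKM under HDM, against 0.117 under PBS. All 6 HDM libraries were above the PBS library of their siRNA, a pattern shown by 4.82% of genes with a mean above 0 and under 1 FPKM. The 3 LY96 siRNA HDM libraries were also all above the 3 control siRNA HDM libraries (1.78-fold, exact permutation test, two-sided p = 0.1, the smallest that 3 against 3 allows). Of all genes with a value above 0 in the HDM libraries, 27.7% had siRNA groups that did not overlap. That share covers genes at all levels. It was 37% at a mean of at least 1 FPKM, and so lower than 27.7% among low genes such as VCAM1. At these levels VCAM1 is a description only.

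Under HDM, 0 of the 5 tested members were called between LY96 and control siRNA by limma, and 1 of them, ICAM5, had an unadjusted p under 0.05, while 15.6% of all genes tested were called. ICAM1 averaged 49.4 ± 1.93 FPKM with LY96 siRNA and 47.1 ± 1.62 with control siRNA (SD, n = 3 each), with overlapping libraries (log2 0.07, 95% interval -0.02 to 0.16, adjusted p = 0.277). CD47 averaged 20.9 ± 0.409 FPKM with LY96 siRNA and 19.97 ± 0.386 with control siRNA (SD, n = 3 each), its groups did not overlap, and it did not pass (log2 0.06, 95% interval -0.02 to 0.14, adjusted p = 0.261). Groups did not overlap for 37% of the genes tested.

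For CD58 the difference was log2 0.07 (95% interval -0.04 to 0.18, adjusted p = 0.379), and for ICAM3 it was -0.13 (-0.30 to 0.04, adjusted p = 0.263). ICAM5 averaged 4.82 ± 0.539 FPKM with LY96 siRNA and 4.03 ± 0.383 with control siRNA (SD, n = 3 each, log2 0.21, 95% interval 0.02 to 0.40, adjusted p = 0.120). Ribosomal RNA took 1.03% to 1.31% of the FPKM total in LY96 siRNA HDM libraries and 0.475% to 0.824% in control siRNA HDM libraries, and its part in these differences was not tested. Epithelial markers summed to 2316 to 2496 FPKM in LY96 siRNA HDM libraries and 2519 to 2636 FPKM in control siRNA HDM libraries, while fibroblast or mesenchymal markers summed to 370 to 378 FPKM in LY96 siRNA HDM libraries and 342 to 353 FPKM in control siRNA HDM libraries, and 390.3 and 390.5 FPKM in the LY96 and control siRNA PBS libraries. The part of these sums was likewise not tested. Within the epithelial list, CDH1 averaged 1.42-fold and KRT5 1.06-fold higher with LY96 siRNA, against the direction of the sum. The fibroblast or mesenchymal sum was mostly VIM, which averaged 338 FPKM with LY96 siRNA and 317 with control siRNA under HDM. Of the other markers reaching a mean of 1 FPKM, COL1A1 and THY1 went with that sum. PDGFRB went against it, at 9.72 FPKM with LY96 siRNA and 10.3 with control siRNA under HDM.

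**Figure D3:**
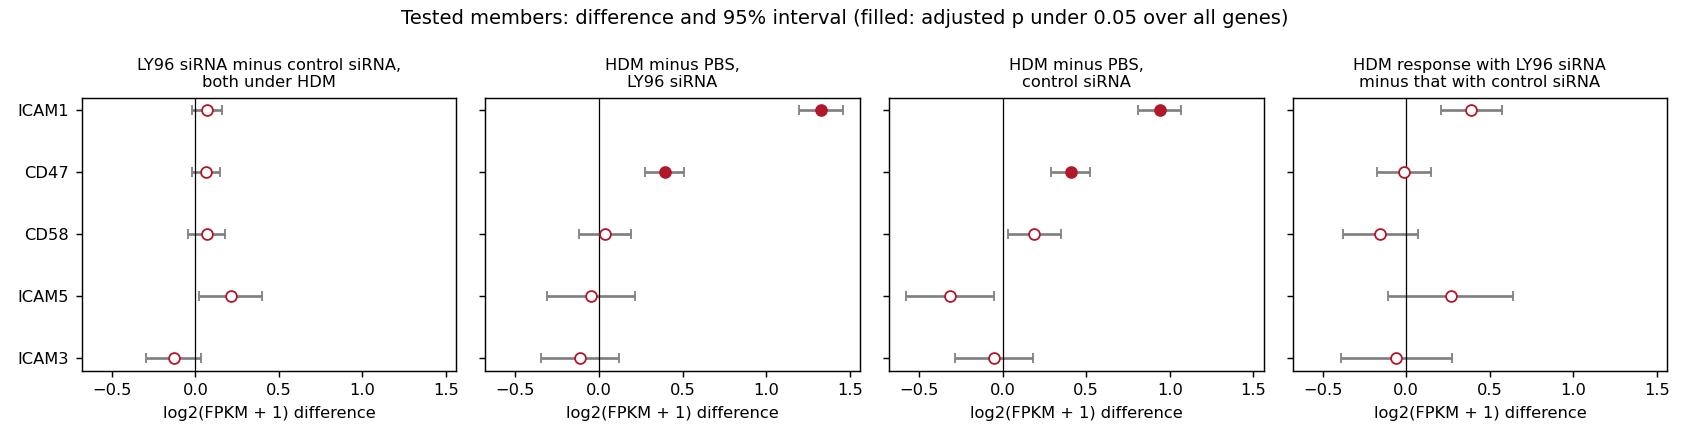
Differences of the 5 tested genes on the log2(FPKM + 1) scale with 95% intervals, for LY96 against control siRNA under HDM, for HDM against PBS within each siRNA, and for the difference between both HDM responses; filled points have an adjusted p under 0.05. ICAM1 and CD47 are filled for HDM within each siRNA, and no member is filled in the outer panels.

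The HDM response of ICAM1 was larger with LY96 siRNA than with control siRNA by log2 0.39 ± 0.08 SE, and this difference did not pass the test over all genes (unadjusted p = 0.00102, adjusted p = 0.196). It was the only tested member with an unadjusted p under 0.05, and 0.0555% of all genes tested were called. Under PBS, ICAM1 was at 19.1 FPKM with LY96 siRNA and 24.1 with control siRNA. The difference in response therefore rests on 2 PBS libraries, 1 for each siRNA. For CD47 the difference in response was log2 -0.014 (95% interval -0.18 to 0.15, adjusted p = 0.976). For CD58, ICAM3 and ICAM5 the intervals were -0.38 to 0.07, -0.39 to 0.27 and -0.11 to 0.64.

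ICAM1, ICAM4, ICAM5 and ICAM3 lie in 1 stretch of chromosome 19. ICAM4, a red blood cell adhesion molecule whose gene starts 352 bases beyond the end of ICAM1, was at 0.395, 0.296 and 0.0791 FPKM with LY96 siRNA and HDM and 0.186, 0.333 and 0.361 with control siRNA and HDM, and at 0.506 and 0.264 with PBS and LY96 or control siRNA. It was thus too low to test, and its libraries overlapped. ICAM5 begins 3366 bases beyond ICAM1. Of the 7 other neighbours tested, between S1PR2 and CDC37, 0 were called for HDM over both siRNAs by limma, with 3 at an unadjusted p under 0.05. As 8.36% of all genes tested were called, a count of 0 among 7 says little. The log2 differences were -0.0019 for S1PR2, 0.056 for MRPL4, -0.25 for ZGLP1, 0.026 for FDX1L, 0.0071 for RAVER1, 0.086 for TYK2 and 0.088 for CDC37, against 1.13 for ICAM1. Between siRNAs under HDM, MRPL4, a mitochondrial ribosomal protein gene, was the only call of the 7 (log2 -0.19, adjusted p = 0.0141), beside 15.6% of all genes. It needed control HDM replicate 2 (adjusted p = 0.0579 if left out).

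**Figure D4:**
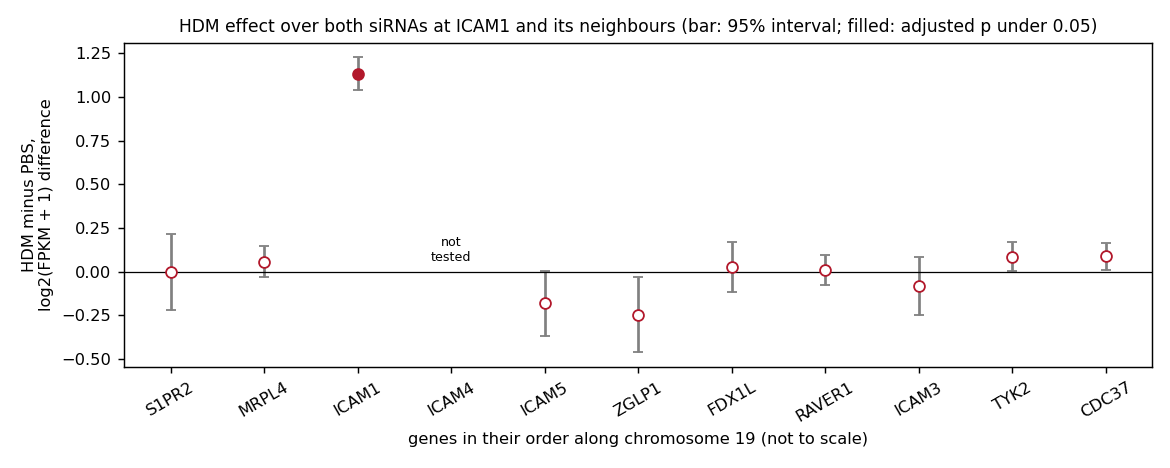
HDM effect over both siRNAs for ICAM1 and genes around it in their order on chromosome 19, as log2(FPKM + 1) difference with 95% interval. ICAM1 stands at 1.13 and is the only filled point; the other tested genes lie between -0.25 and 0.088, and ICAM4 was too low to test.

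Many genes of transcription factors known to act at the ICAM1 promoter rose with HDM. Of 17 listed and tested, 11 were called higher and 0 lower over both siRNAs, beside 4.86% and 3.5% of all genes, with a median of log2 0.32 beside 0.01 over all genes. The list was chosen with earlier results of these data known, so its counts here and between siRNAs are a description, not independent evidence. RELB, an NF-kB subunit, was at 16.8, 17.9 and 17.4 FPKM with LY96 siRNA and HDM against 5.56 with PBS, and at 12.8, 12.6 and 12.1 with control siRNA and HDM against 5.15 with PBS. Its HDM libraries were all above both PBS libraries (log2 1.31 ± 0.04 SE, adjusted p = 4.23e-07). CEBPD, a C/EBP family factor, rose by log2 1.11 (adjusted p = 4.89e-07), NFKB2 by 0.91 (adjusted p = 1.66e-06) and NFKB1 by 0.78 (adjusted p = 3.50e-06). With LY96 siRNA 10 of the 17 were called higher, beside 2.91% of all genes, and with control siRNA 8, beside 1.55%, with 0 lower in each. RELA, a main activating NF-kB subunit, named here after its values were seen, was at log2 0.11 and did not pass (adjusted p = 0.118).

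Between siRNAs under HDM, 8 of these 17 were called higher and 1 lower, beside 6.68% and 8.92% of all genes. CEBPB (log2 0.59, adjusted p = 2.54e-04), the AP-1 subunit gene JUNB (0.56, adjusted p = 2.47e-04), RELB (0.45, adjusted p = 4.28e-04) and REL (0.34, adjusted p = 0.00972) were higher with LY96 siRNA, while ICAM1 itself was at 0.07. Over all genes, the split of 842 higher and 1124 lower calls became 1068 and 877 after median-ratio scaling. The part of ribosomal RNA and of the marker sums in these calls was not tested.

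Other adhesion ligands moved in both directions with HDM. Of 25 listed, 15 were tested, and 4 were called higher and 2 lower over both siRNAs, beside 4.86% and 3.5% of all genes, with a median of log2 0.01. MUC1, a membrane mucin that can bind ICAM1, rose by log2 0.67 (adjusted p = 0.00297), CXCL16, a membrane-bound chemokine, by 0.36 (adjusted p = 0.00223) and PVR, a ligand of NK and T cell receptors, by 0.31 (adjusted p = 0.0184). The PVR call was lost without the low-value filter (adjusted p = 0.0631). PODXL, a sialomucin, fell by 0.30 on the log2 scale (adjusted p = 8.43e-04). CD44 and ALCAM, a ligand of CD6, named after their values were seen, were the other calls, at log2 0.29 and -0.23. With control siRNA alone 1 was called, CXCL16, and with LY96 siRNA MUC1, PVR and CXCL16 were called higher and PODXL lower; CXCL16 lost its call without the low-value filter (adjusted p = 0.111 with LY96 siRNA and 0.0546 with control siRNA), as did PVR with LY96 siRNA (0.124). With LY96 siRNA, CXCL16 also lost its call without any 1 of the 6 HDM libraries, and PVR without any other than LY96 HDM replicate 1. Leaving out a control siRNA library changed only the p-values there, since the differences with LY96 siRNA do not use it. Both also lost the call with LY96 siRNA without trend and robust moderation (adjusted p = 0.0987 for CXCL16 and 0.0919 for PVR). Under HDM, the hyaluronan receptor gene CD44 was at 21.2, 19.8 and 18.3 FPKM with LY96 siRNA and 16.5, 15.7 and 16.5 with control siRNA, without overlap (log2 0.27, adjusted p = 0.0120). CD59, which blocks the complement membrane attack complex and was proposed to bind CD2, was higher by log2 0.18 (adjusted p = 0.0110). CD44 and CD59 were the only calls of the 15, where 6.68% of all genes were called higher and 8.92% lower.

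**Figure D5:**
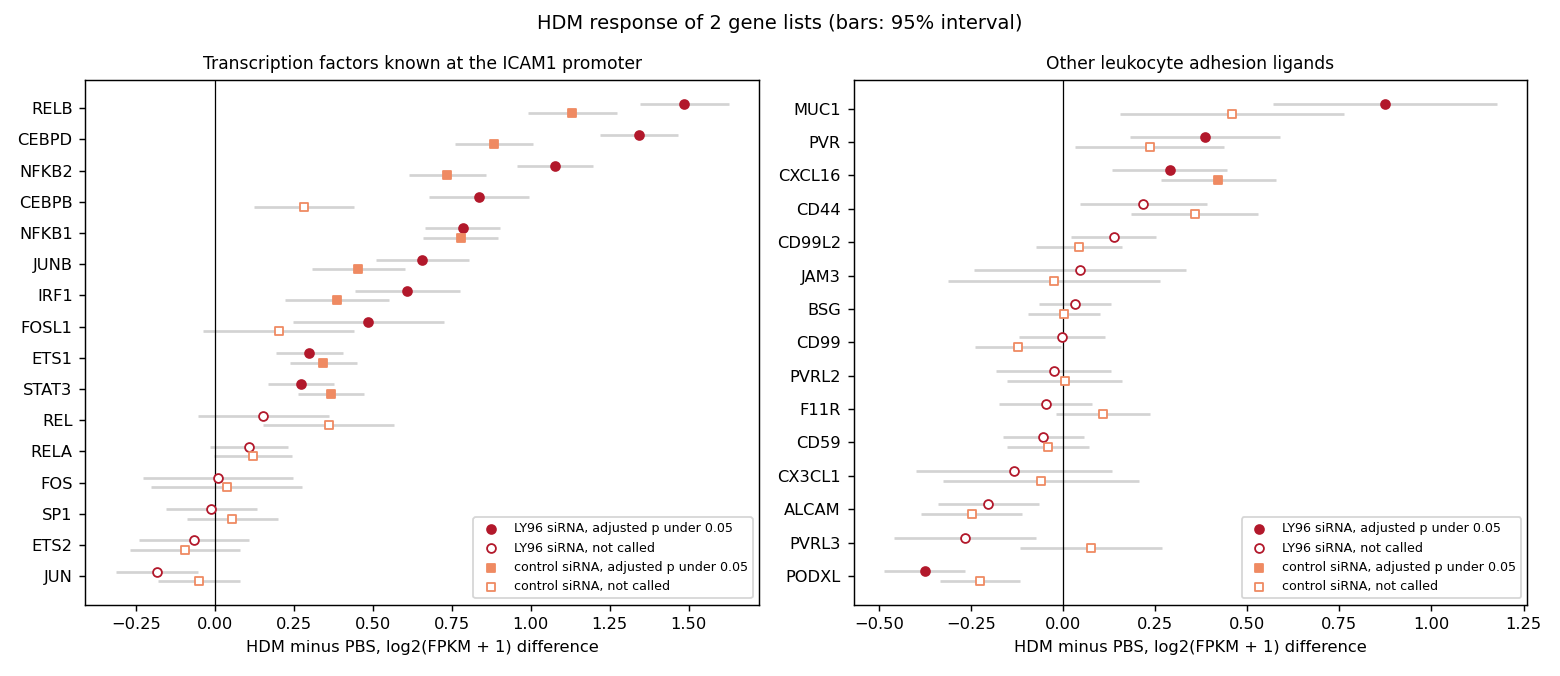
HDM minus PBS differences on the log2(FPKM + 1) scale, with 95% intervals, for transcription factor genes and other adhesion ligand genes of both lists, with LY96 siRNA (circles) and control siRNA (squares); filled symbols have an adjusted p under 0.05. RELB, CEBPD, NFKB2 and NFKB1 are filled for both siRNAs, and MUC1 is filled with LY96 siRNA.

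The integrin chains and receptors that bind the 7 ligands were mostly at or near 0. Of 13 listed, 3 were tested, ITGB1, ITGB2 and SIRPA, and 0 were called by limma for HDM over both siRNAs (1 with an unadjusted p under 0.05) or between siRNAs under HDM (0 with an unadjusted p under 0.05). Of 9 CD47 partners and modifiers, 7 were tested and 1 was called for HDM over both siRNAs, where 3.5% of all genes were called lower, the thrombospondin gene THBS1, which fell by 0.38 on the log2 scale (adjusted p = 4.40e-04). It was called with LY96 siRNA (log2 -0.51, adjusted p = 9.04e-04) and narrowly with control siRNA (-0.26, adjusted p = 0.0499). The latter call was lost without any 1 control HDM library and without LY96 HDM replicate 2 (adjusted p = 0.0631 to 0.118). Leaving out that LY96 siRNA library changed only the p-value, since the difference with control siRNA does not use it. The call with control siRNA was also lost without the low-value filter (adjusted p = 0.120), after quantile normalization (0.107) and without trend and robust moderation (0.141). Between siRNAs under HDM, THBS1 was at 71.6 ± 3.69 FPKM with LY96 siRNA and 90.5 ± 0.747 with control siRNA (SD, n = 3 each, log2 -0.33, adjusted p = 0.00108). The integrin gene ITGAV (log2 0.17, adjusted p = 0.0197) and UBQLN1, a ubiquilin gene (-0.13, adjusted p = 0.0304), were the other calls, beside 6.68% of all genes higher and 8.92% lower. ITGAV was lost without control HDM replicate 2 or 3 or LY96 HDM replicate 1 or 3 (adjusted p = 0.0536 to 0.0596), and UBQLN1 without each library other than LY96 HDM replicate 3 (0.0512 to 0.0913). UBQLN1 was also lost after median-ratio scaling (adjusted p = 0.0595) or quantile normalization (0.0587), without trend and robust moderation (0.0681) and with the replicate block (0.0587).

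Of 12 genes whose proteins link ICAM1 or VCAM1 to actin or signal below them, 0 were called higher and 2 lower for HDM over both siRNAs, beside 4.86% and 3.5% of all genes. The alpha-actinin gene ACTN4 was at 130, 128 and 125 FPKM with LY96 siRNA and HDM against 166 with PBS, and at 146, 150 and 146 with control siRNA and HDM against 166 with PBS (log2 -0.27, adjusted p = 5.32e-04). The other call, the filamin gene FLNA (-0.098, adjusted p = 0.0496), was lost without any 1 HDM library (adjusted p = 0.0514 to 0.1001), without the low-value filter (0.0574), after quantile normalization (0.111), without trend and robust moderation (0.162) and in the additive model (0.122). Between siRNAs under HDM, 0 were called higher and 4 lower, beside 6.68% and 8.92% of all genes, among them ACTN4 (log2 -0.20, adjusted p = 0.00290). The kinase gene SRC (-0.17, adjusted p = 0.0432) was lost without each library other than control HDM replicate 3 (0.0594 to 0.124). It was also lost after median-ratio scaling (0.0688) or quantile normalization (0.0715), without the low-value filter (0.0830), without trend and robust moderation (0.0696) and with the replicate block (0.0792). An additive model pools the siRNA difference over HDM and PBS libraries, and SRC was not called there (adjusted p = 0.0663). ACTN1 (-0.13, adjusted p = 0.0131) was lost without control HDM replicate 2 (0.0550) and without trend and robust moderation (0.0534). Among 6 tested genes of shedding, TIMP3, an inhibitor of ADAM17, fell by 0.68 on the log2 scale with HDM (adjusted p = 2.53e-04) and RHBDF2, an ADAM17 cofactor, rose by 0.30 (adjusted p = 0.00371). TIMP3 was also lower with LY96 siRNA under HDM (log2 -0.31, adjusted p = 0.0153, and 0.0584 without control HDM replicate 2). ADAM10, another sheddase gene, was lower with LY96 siRNA under HDM (log2 -0.23, adjusted p = 0.00317). ADAM17, which can cleave ICAM1 and VCAM1 from the cell surface, was higher by log2 0.18 (adjusted p = 0.0385), a call lost without each HDM library other than control HDM replicate 2 (adjusted p = 0.0672 to 0.108), without the low-value filter (0.0805) and without trend and robust moderation (0.0715).

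By Pearson correlation of log2(FPKM + 1) over the 8 libraries, the 5 of 12603 genes most like ICAM1 were CYP1B1 (r = 0.990), PSMB10 (0.990), SBNO2 (0.988), CSF1 (0.987) and SULF1 (0.987). Within the 6 HDM libraries alone, r was 0.232, 0.888, 0.554, 0.493 and 0.855 in the same order, below the value over 8 libraries for each. The 8 points share the step between HDM and PBS libraries. CD47 had r = 0.950 over 8 libraries and ranked 72. CD58 had r = 0.448, ICAM3 -0.390 and ICAM5 -0.459.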

How the data were processed

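Per the submitters' processing notes, the tools and builds named are HISAT2 2.2.0, a read aligner, and hg38; which program and annotation made the values is not stated there. The deposited values were read as FPKM from their properties, since neither the labels nor the file headers name the unit: they are not whole numbers and totals differ between libraries. Low values showed no whole-read steps, so the depth per library is unknown. No pair of libraries held identical values.

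Samples were grouped by title. Members, gene lists, patterns and tests were chosen with earlier results of these data known. Tests covered genes averaging 1 FPKM or more across the libraries fitted, on log2(FPKM + 1), which understates changes of low genes, with limma 3.58.1 in R 4.3.3 (mean-variance trend, robust moderation, 4 residual degrees of freedom) and a threshold of 0.05. The siRNA effect used 6 HDM libraries, the others 4 group means over 8 libraries. The fit was tested on simulated data in which the PBS libraries were made to vary like the HDM libraries. That assumption could therefore not be checked by it. Named list genes were up to 4 called genes with the largest differences per list and comparison, reported mainly for HDM over both siRNAs and for the siRNA effect; some genes counted in the lists are not reported here by name. Older symbols were matched through RefSeq. Gene positions are those of GENCODE 29 on GRCh38, and promoter sequences those of RefSeq (GRCh38.p14).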

Additional observations from a re-analysis of the deposited data

How the results depend on the processing

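The HDM calls of ICAM1 and CD47 held over both siRNAs and within each siRNA under all alternatives run: pseudocounts of 0.1 and 0.25, no low-value filter, a mean of at least 5 FPKM, median-ratio scaling, quantile normalization, limma without trend and robust moderation, an additive model (over both siRNAs only) and leaving out each HDM library. The PBS libraries, 1 for each siRNA, were never left out, so how far these calls depend on them was not tested. Within 1 siRNA, leaving out an HDM library of the other siRNA could change only the p-value. Over both siRNAs ICAM1 ranged from log2 1.12 to 1.17 and CD47 from 0.38 to 0.42. No other member of those tested in the main fit gained a call. ICAM1 between siRNAs under HDM ranged from log2 0.045 to 0.0997 when 1 HDM library was left out. An additive model over 8 libraries, which pools the siRNA difference over HDM and PBS libraries, gave log2 -0.028 (adjusted p = 0.803). That value is not the difference under HDM alone. The HDM difference of ICAM5 with LY96 siRNA ranged from log2 -0.12 to 0.011 when 1 library was left out. The uncalled difference in response of RELA (log2 -0.040 to 0.0068, above 0 without LY96 HDM replicate 1) also changed sign when 1 library was left out; the cause was not tested. ICAM3 and ICAM5 have no value at a mean of at least 5 FPKM. Without the low-value filter, the HDM difference of VCAM1 was log2 0.57 over both siRNAs, 0.80 with LY96 siRNA and 0.35 with control siRNA. In that setting VCAM1 passed the threshold over both siRNAs and with LY96 siRNA, and not with control siRNA. All VCAM1 values were under 1 FPKM, and each siRNA had 1 PBS library, listed at 0 for LY96 siRNA. These differences and calls are therefore a description only.

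Counts over all genes moved more. Leaving out 1 library gave 1119 to 1369 calls for the siRNA effect (1966 with all; control HDM replicate 2 out, 1119, and replicate 3 out, 1243), 187 to 329 for HDM with control siRNA (288 with all, 187 without control HDM replicate 2) and 0 to 33 for the difference in response (7 with all; leaving out control HDM replicate 1 gave 0, with 904 at an unadjusted p under 0.05, and control HDM replicate 3 gave 3, while LY96 HDM replicates 1, 2 and 3 gave 2, 33 and 4). Without trend and robust moderation, HDM with control siRNA had 180 calls and the difference in response 0 by limma (967 with an unadjusted p under 0.05). The difference in response had 20 calls without the low-value filter, 15 at a mean of at least 5 FPKM and 14 after quantile normalization. The replicate numbers are not shown to pair the libraries: deviations of same-numbered HDM libraries correlated at 0.0485, -0.0165 and -0.0162, and with a replicate block the siRNA effect had 1635 calls and ICAM1 an adjusted p = 0.193.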

Other observations

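Under PBS, where each siRNA has 1 library and no test was made, the members went different ways between siRNAs. ICAM1 was at 19.1 FPKM in the LY96 siRNA library and 24.1 in the control siRNA library (a ratio of 0.793), while CD58 was at 8.48 and 7.12 FPKM (1.19) and CD47 at 15.7 and 14.8 (1.06). ICAM5 was at 5.01 and 5.24 FPKM and ICAM3 at 2.86 and 3.05.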
